A study of Mus musculus with 12 samples.

Results

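The genes described here are 10 transcription factors of midbrain neurons: Gata2, Gata3, Tal1, Sox14, Pax7, Pou4f1, Lmx1b, Nr4a2, En1 and En2. They were chosen by name from the 55401 gene identifiers of the deposited count tables, each symbol matched 1 identifier, and the rule that names them uses no measured value, although earlier results of these data were known when they were chosen. Of the 10, 9 were among the 19378 genes that passed the filter on low counts, and Sox14 did not, so edgeR did not test it with all 12 libraries. They were followed through 12 RNA sequencing libraries, each from the tissue labelled cerebellum of 1 mouse, in 3 groups of 4. Libraries are named by animal number. The group called WT DMSO (413, 425, 426 and 431) came from wild-type mice injected with dimethyl sulfoxide (DMSO). The group called Het DMSO (409, 411, 420 and 429) came from heterozygous Atxn1 154Q/2Q mice, which model spinocerebellar ataxia type 1 because 1 allele of their own Atxn1 gene codes for a long run of glutamines, injected with DMSO alone. The group called Het Hit 2 (410, 421, 422 and 430) came from mice of the same genotype injected with the compound Hit 2 dissolved in DMSO. Injections ran from 18 to 20 weeks of age in all 3 groups, and every group received DMSO. The knock-in sits at the gene's own locus, so it is not limited to one cell type by a promoter.

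Transcription factors divide the embryonic neural tube into regions and later keep neurons of a region in their class. Gata2, Gata3, Tal1 and Sox14 mark GABAergic neurons of the midbrain and neighbouring brainstem and thalamus, Pax7 and Pou4f1 mark dorsal midbrain and tectal neurons, and Lmx1b and Nr4a2 take part in making dopaminergic neurons. Lmx1b is also needed for serotonergic neurons of the hindbrain, and En1 and En2, the engrailed homeobox genes, pattern both the midbrain and the cerebellum that develops beside it. In the adult cerebellum engrailed genes are known to stay on, whereas most of the other members are known mainly from neurons outside it, so their reads bear on which tissue a library holds.

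The tissue label was checked first against marker genes of cerebellar neurons, taking the 4 genes with the highest mean level per exon length of each marker list. Library 411 of the Het DMSO group went against its label. Fat2, an atypical cadherin of granule cells, stood at 2.57 CPM (read count per 1000000 gene reads, with library sizes scaled by edgeR) in 411 and at 1452 to 4022 CPM in the other 11 libraries. Pcp2, a Purkinje cell gene, stood at 0.555 CPM in 411 and at 70.2 to 209 CPM in the others. Cbln3, a synaptic organiser of granule cells, stood at 2.52 CPM against 489 to 1048 CPM. The other 5 of these 8 genes were lowest in 411 as well but were not near 0. Of the granule cell genes, Cbln1 stood at 18.0 CPM in 411 against 256 to 648 and Calb2 at 93.1 against 182 to 563. Of the Purkinje cell genes, Car8 stood at 12.4 CPM against 293 to 855, Rgs8 at 160 against 385 to 1068 and Itpr1 at 273 against 2011 to 4727. The comparisons between groups are therefore given with and without 411. Library 409, also Het DMSO, stood apart in another way, with 0.0795% of gene reads from mitochondrial transcripts. Depth ran from 15855751 to 45265719 gene reads per library, so 1 read is worth well under 0.1 CPM everywhere. Reads of Xist, the transcript of the inactive X chromosome, were abundant in WT libraries 425 and 426 only. In whole tissue, fewer cells of a type and less RNA per cell cannot be told apart.

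The sequences before the transcription starts of Tal1 and Sox14 are shown because these 2 genes were high in the same libraries and because GATA factors, 2 of which are members, bind the motif capitalised in them. Both are the 250 bases before a RefSeq start in build GRCm38.p6, which is not the build the authors aligned to, written 5′ to 3′ on the gene's strand. Capitals mark the GATA motif in its forms AGATAA or else AGATAG with first base A, and TGATAA or else TGATAG with first base T, on either strand. The first lies at chr4:115056176-115056425 on the plus strand, and the second at chr9:99876171-99876420 on the minus strand.
Tal1: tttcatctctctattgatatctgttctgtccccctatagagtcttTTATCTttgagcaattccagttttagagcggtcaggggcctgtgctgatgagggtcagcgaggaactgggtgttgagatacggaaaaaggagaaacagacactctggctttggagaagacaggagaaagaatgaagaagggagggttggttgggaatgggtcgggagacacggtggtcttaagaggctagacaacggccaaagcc
Sox14: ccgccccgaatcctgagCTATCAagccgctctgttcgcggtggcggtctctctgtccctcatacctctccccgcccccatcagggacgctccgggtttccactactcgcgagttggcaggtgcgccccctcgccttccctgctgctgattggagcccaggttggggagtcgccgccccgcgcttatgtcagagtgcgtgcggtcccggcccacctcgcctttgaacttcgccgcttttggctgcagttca
RefSeq windows of 300 bases, 250 before and 50 after the start, matched 9 of the 10 members (11 windows), all but En2. A GATA motif occurred in 3 of the 11 windows, those of Gata3, Sox14 and 1 of the Tal1 starts, against 29.8% of all 32851 windows. CAGATG, a motif of TAL1 with its E-protein partners, occurred in 1 of the 11, in the same Tal1 window, against 17.2% of all windows. TAATTA, a core motif of homeodomain proteins such as EN1, EN2 and LMX1B, occurred in 0 of the 11 and in 5.29% of all windows. Both strands were searched, and none of these 3 motifs contains another. The match of Gata3 begins 37 bases after the start, that of Tal1 at base -205 and that of Sox14 at base -233. These are matches of letters in a window and not shown binding sites.

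Per kilobase of exon, the median over the 12 libraries was highest for En2 (33.0 CPM per kb), followed by Nr4a2 (5.57), En1 (2.92), Gata2 (0.921), Tal1 (0.293), Lmx1b (0.0813), Pou4f1 (0.0424), Sox14 (0.0287), Gata3 (0.0220) and Pax7 (0.00645). The ranges over libraries of En1 (0.127 to 5.69 CPM per kb) and Nr4a2 (2.51 to 9.44) overlapped, as did those of Lmx1b, Pou4f1, Sox14, Gata3 and Pax7. Gata2 (0.724 to 2.67) also overlapped En1, and Tal1 (0.197 to 5.83) overlapped Gata2 and the genes below it. So the order among these neighbours lay within the spread of libraries. En2 lay within the range of Nr4a2 in 411 only and stood at 19.6 to 54.9 in the other libraries. In library 411 the order was different. There Gata3 was first with 7.82 CPM per kb, followed by Tal1 (5.83), Sox14 (4.67), Pou4f1 (4.63) and Nr4a2 (4.46), and En2 stood at 3.65. The plot of member levels by group shows every library.

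**Figure D1:**
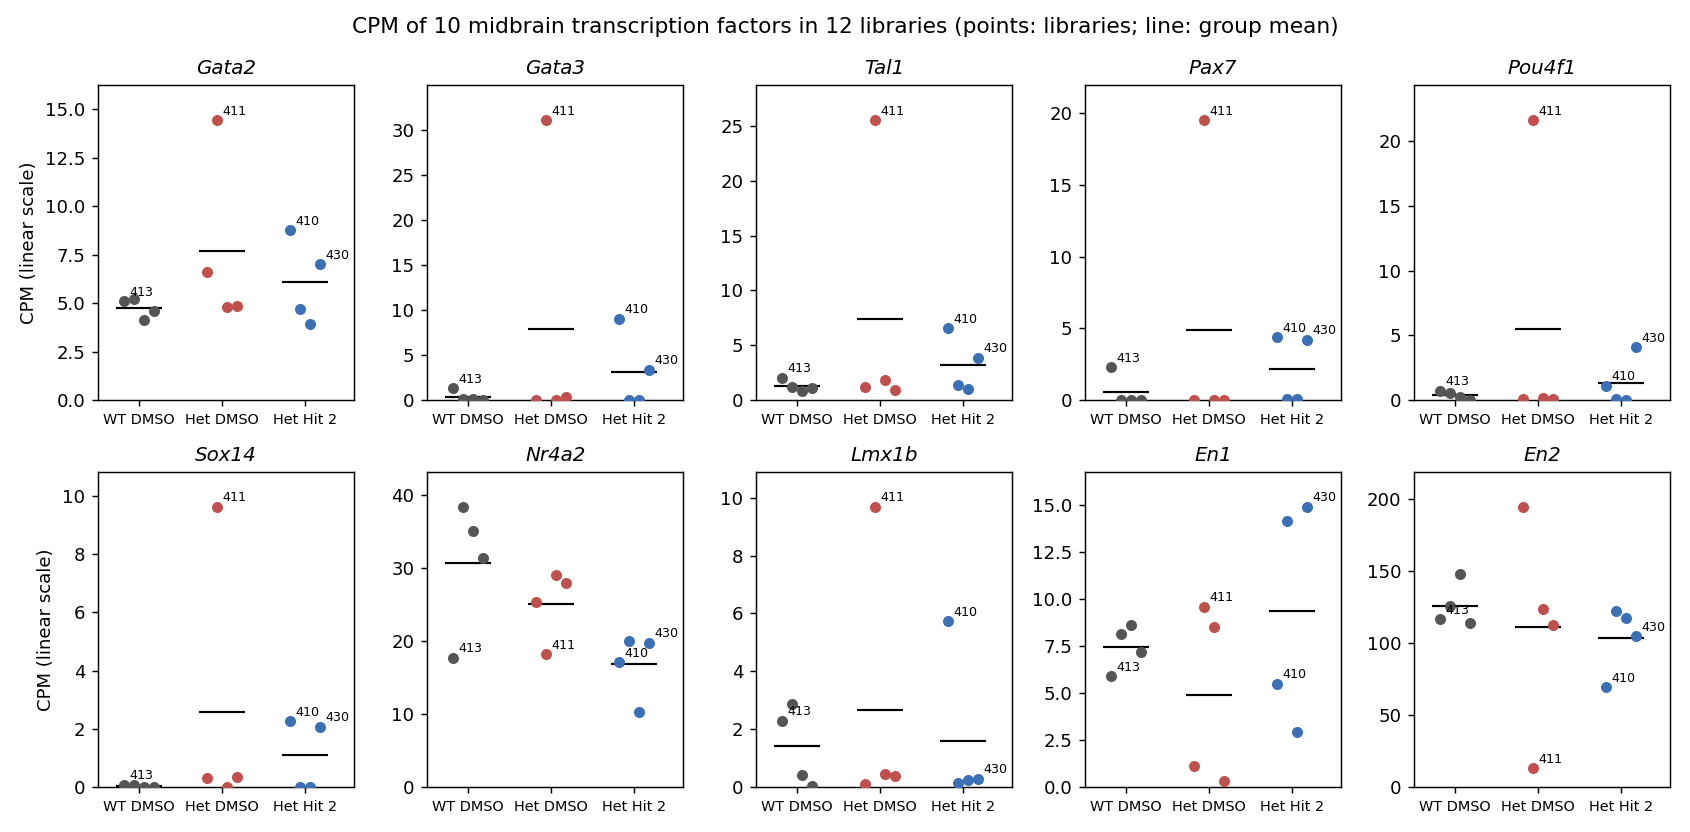
CPM (vertical axis, linear, from 0) of each of the 10 transcription factors in the 4 libraries of each group; points are libraries, lines are group means, and 411, 410, 430 and 413 are labelled by animal number. Library 411 is the highest point for 7 genes and the lowest for En2, at 12.9 CPM.

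Gata2, a zinc finger factor that selects the GABAergic fate in the midbrain, was read in every library. It stood at 5.10, 5.21, 4.11 and 4.57 CPM in WT libraries 413, 425, 426 and 431, at 6.60, 14.4, 4.79 and 4.84 CPM in Het DMSO libraries 409, 411, 420 and 429, and at 8.74, 4.70, 3.91 and 6.99 CPM in Het Hit 2 libraries 410, 421, 422 and 430. All 3 groups overlapped, with 411 highest and 410 next. The level held between 3.91 and 8.74 CPM outside 411, so Gata2 varied least among the 4 GABAergic factors.

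Gata3, its paralog, acts after Gata2 in the same neurons. It stood at 1.32, 0.0707, 0.105 and 0 CPM in WT libraries 413, 425, 426 and 431, at 0, 31.1, 0 and 0.292 CPM in Het DMSO libraries 409, 411, 420 and 429, and at 9.03, 0, 0.0230 and 3.38 CPM in Het Hit 2 libraries 410, 421, 422 and 430. Libraries 431, 409, 420 and 421 had 0 reads, which allows up to 0.134, 0.0739, 0.187 and 0.148 CPM in that order (3 reads, counting error only). Library 411 (616 reads), 410 (156), 430 (72) and 413 (37) held nearly all reads, and the other 8 libraries had 7 reads or fewer.

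Tal1, a helix-loop-helix factor that joins GATA factors in one complex, was present at low level in every library. It stood at 2.03, 1.15, 0.863 and 1.12 CPM in the WT libraries in the order used above, at 1.23, 25.5, 1.87 and 0.959 CPM in Het DMSO, and at 6.54, 1.33, 0.989 and 3.85 CPM in Het Hit 2. The same 4 libraries, 411, 410, 430 and 413, ranked highest in that order.

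Sox14, an SRY-box factor of GABAergic neurons that form part of the midbrain and thalamic visual nuclei, had 0 reads in 5 libraries. It stood at 0.0714, 0.0471, 0 and 0 CPM in WT, at 0.320, 9.64, 0 and 0.334 CPM in Het DMSO, and at 2.26, 0, 0 and 2.06 CPM in Het Hit 2, in the same library order. Only 411, 410 and 430 exceeded 1 CPM, while 413, which had 37 reads of Gata3, had 2 reads of Sox14. A count of 0 allows at most 0.187 CPM in these libraries, in the shallowest of them (420).

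Red blood cells and blood vessels also use GATA and TAL factors, so markers of both were read beside these 4 genes. Gata1, the erythroid GATA factor, was at 0 to 0.0523 CPM in the 12 libraries and at 0 in 411. The summed CPM of 7 red blood cell genes was 4.39 in 411, 67.5 in 410 and 16.7 in 430, within 3.74 to 67.5 over all libraries. The summed CPM of 12 endothelial genes was 363 in 411 and 214 to 350 in the others, with 411 highest of the 12 libraries in 6 of the 12 genes, where 27.5% of all genes were highest, and at least 1 log2 unit above the others' median in 1, where 12.9% of all genes were. None of the 12 was at 0. The part of blood vessels in the reads of Gata2 and Tal1 was not tested.

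Pax7, a paired homeobox factor of the dorsal midbrain, was read almost wholly in 4 libraries. It stood at 2.28, 0, 0.0262 and 0 CPM in WT libraries 413, 425, 426 and 431, at 0, 19.5, 0 and 0 CPM in Het DMSO libraries 409, 411, 420 and 429, and at 4.40, 0.0494, 0.0690 and 4.22 CPM in Het Hit 2 libraries 410, 421, 422 and 430. Reads numbered 387 in 411, 90 in 430, 76 in 410 and 64 in 413, and 3 or fewer in each of the other 8. The Het DMSO libraries 409, 420 and 429 together had 0 reads, which allows up to 0.0372 CPM over the 3.

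Pou4f1, also called Brn3a, a POU homeobox factor of tectal, red nucleus and habenular neurons, stood at 0.714, 0.565, 0.209 and 0.0448 CPM in WT, at 0.0985, 21.7, 0.187 and 0.0834 CPM in Het DMSO, and at 1.10, 0.0494, 0.0460 and 4.08 CPM in Het Hit 2, in the same library order. Every library had at least 1 read. After 411 the order was 430, 410, 413 and 425, whereas for Gata3 library 410 came before 430.

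Lmx1b, a LIM homeobox factor of dopaminergic and serotonergic neurons, stood at 2.28, 2.87, 0.418 and 0.0448 CPM in WT, at 0.0985, 9.69, 0.436 and 0.375 CPM in Het DMSO, and at 5.73, 0.148, 0.230 and 0.281 CPM in Het Hit 2. Library 410 was second and WT library 425 came next, with 122 reads. Library 430, high for Gata3, Pax7, Pou4f1 and Sox14, had 6 reads of Lmx1b.

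Nr4a2, also called Nurr1, an orphan nuclear receptor that dopaminergic neurons need and that activity induces in other neurons, did not follow this pattern. It stood at 17.7, 38.3, 34.9 and 31.4 CPM in WT libraries 413, 425, 426 and 431, at 25.2, 18.1, 29.0 and 27.9 CPM in Het DMSO libraries 409, 411, 420 and 429, and at 17.0, 20.0, 10.2 and 19.8 CPM in Het Hit 2 libraries 410, 421, 422 and 430. Library 411 was the ninth highest of the 12. WT library 413 lay within the range of the Het Hit 2 libraries, and the other 3 WT libraries lay above all 4 of them.

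En1, the first engrailed gene, was lower in 2 Het DMSO libraries than elsewhere. It stood at 5.89, 8.13, 8.60 and 7.21 CPM in WT, at 1.13, 9.59, 8.53 and 0.334 CPM in Het DMSO, and at 5.50, 14.1, 2.90 and 14.9 CPM in Het Hit 2, in the same library order. Library 429 had 8 reads and library 409 had 46, while 420, of the same group and shallower, had 137. The 4 WT libraries lay within the range of each of the other groups.

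En2, the second engrailed gene and the most abundant member, stood at 116, 126, 148 and 114 CPM in WT, at 194, 12.9, 124 and 112 CPM in Het DMSO, and at 69.3, 122, 117 and 104 CPM in Het Hit 2. Library 411 was lowest and 410 next lowest, and 409 was highest. Over the 12 libraries En2 thus ran opposite to Gata3 at its lower end, where 411 and 410 had the most Gata3 and the least En2.

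Counted library by library, 411 was the highest of the 12 in 6 of the 9 members that passed the filter (Gata2, Gata3, Tal1, Pax7, Pou4f1 and Lmx1b), while 27.5% of all 19378 genes were highest there. The same 6 lay at least 1 log2 unit above the median of the other 11 libraries in 411, against 12.9% of all genes. In library 410 it was 5 of 9 (Gata3, Tal1, Pax7, Pou4f1 and Lmx1b), against 7.18% of genes. In library 430 it was 5 of 9 (Gata3, Tal1, Pax7, Pou4f1 and En1), against 3.74%, and in WT library 413 it was 4 of 9 (Gata3, Pax7, Pou4f1 and Lmx1b), against 2.5%. WT library 425 had 2 (Pou4f1 and Lmx1b), against 1.6%, and 429 had 1 (Gata3, from 7 reads), against 1.73%. The other 6 libraries had none, against 0.702% of genes in 426, 0.991% in 431, 4.15% in 409, 0.604% in 420, 0.439% in 421 and 0.196% in 422. Library 411 was the lowest of the 12 in 1 of the 9 members, En2, against 23.7% of genes. Members also lay at least 1 log2 unit below the other libraries' median. There were 3 of 9 in 431 (Gata3, Pou4f1 and Lmx1b; 2.75% of genes), in 409 (Gata3, Lmx1b and En1; 21.2%), in 421 (Gata3, Pou4f1 and Lmx1b; 1.71%) and in 422 (Pou4f1, Nr4a2 and En1; 3.05%). There was 1 of 9 in 420 (Gata3; 2.7%) and in 429 (En1; 0.753%). En2, counted above as lowest in 411, had a log2 difference of -3.18 from the other libraries' median there. Each of the 3 groups held at least 1 library with several members above by that margin and at least 1 with none. These counts are partly fixed by the filter on low counts, which asks for enough reads in at least 4 libraries. Gata3 and Pax7 passed it through 411, 410, 430 and 413, with at most 0.292 and 0.0690 CPM elsewhere. Sox14, with 2 reads in 413, did not pass. For such members, and for list genes that passed in this way, the share over all genes is not a like comparison.

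Summed over the 7 members other than Nr4a2, En1 and En2, a subset chosen after its values were seen, the level was 132 CPM in 411, 37.8 in 410, 24.9 in 430, 13.8 in 413 and 9.92 in 425. It was 5.27 to 8.35 CPM in the other 7 libraries, most of it Gata2. The mix of these genes was not the same in the libraries that held them. Relative to 411, library 410 had 59.2% of the Lmx1b level (exact 95% interval 45.9% to 75.8%) but 5.08% of the Pou4f1 level (3.03% to 8.03%). Library 430 had 2.90% of the Lmx1b level (1.05% to 6.44%) and 18.8% of the Pou4f1 level (14.8% to 23.8%). Pax7 stood at 22.5% (17.4% to 28.9%) of 411 in library 410 and at 21.6% (17.0% to 27.3%) in 430, and Sox14 at 23.4% (16.2% to 33.2%) and 21.4% (15.1% to 29.9%), so for these 2 genes the intervals of both libraries overlapped. For Gata3 they did not, with 29.1% (24.2% to 34.7%) in 410 and 10.9% (8.39% to 13.9%) in 430. WT library 413 had 11.7% (8.83% to 15.3%) of the Pax7 level of 411 and 0.740% (0.0890% to 2.71%) of its Sox14 level. These intervals cover counting error only, since reads copied by PCR are not independent molecules. With 1 library each they compare libraries and not groups.

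**Figure D2:**
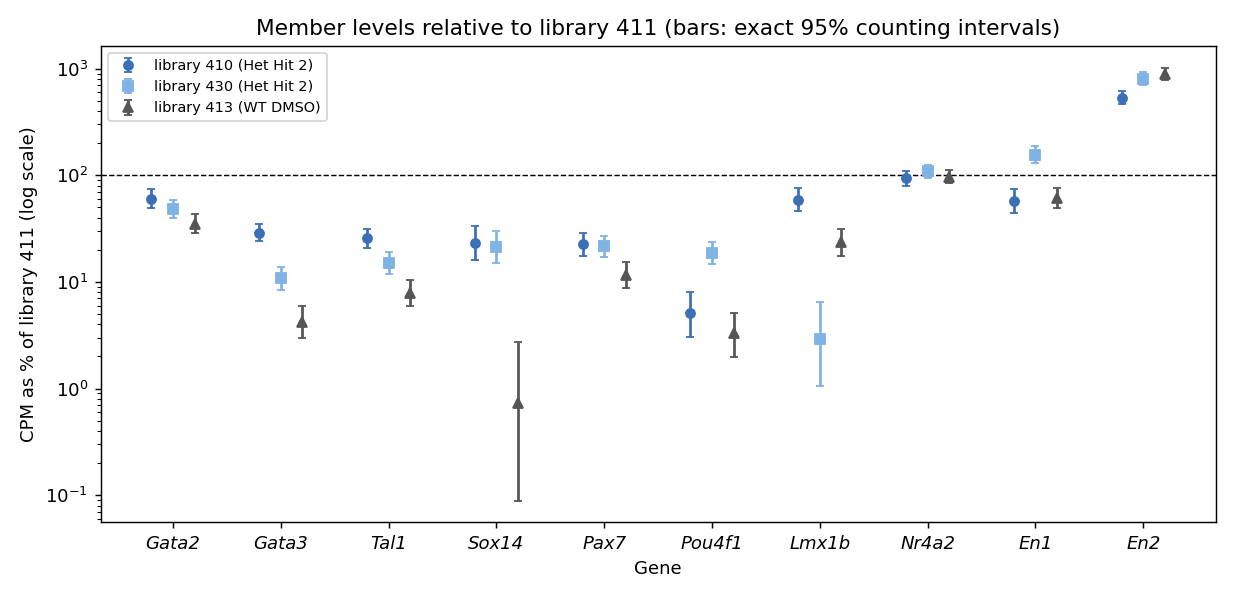
CPM of each transcription factor in libraries 410, 430 and 413 as a percentage of library 411 (vertical axis, log scale), with exact 95% counting intervals as bars and a dashed line at equality. Pou4f1 and Lmx1b are in opposite order in 410 and 430, at 5.08% and 59.2% in 410 and at 18.8% and 2.90% in 430.

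A list of 16 further midbrain factors was read beside the members. Of the 16, 4 passed the filter on low counts, and 411 was highest in 2 of these 4, where 27.5% of all genes were highest. In 411, 3 of 4 lay at least 1 log2 unit above the other libraries' median (12.9% of all genes). In 425 (1.6%) and 429 (1.73%) 2 of 4 did so, and in 413 (2.5%), 410 (7.18%) and 430 (3.74%) 1 of 4 did. Otx2, a homeobox factor that defines the midbrain in the embryo and is also a marker of choroid plexus and of some cerebellar neurons, stood at 17.4 CPM in 411, inside the range of the others (5.82 to 23.5). Lmx1a, the paralog of Lmx1b, stood at 2.93 CPM in 411 and at 0.253 to 3.34 in the others. Pou4f2, the paralog of Pou4f1, stood at 11.7 CPM in 411, at 2.96 in 430 and at 1.10 in 410, and at most at 0.259 in the remaining libraries. Some factors of the ventral midbrain and hypothalamus, chosen after their values were seen, were nearly limited to 411. Among them were Foxa1 (5.35 CPM in 411, at most 0.463 elsewhere) and Foxa2 (3.43, at most 0.0357). Of the 16 genes, 1 had 0 reads in 411, and 4 to 12 had 0 reads in each other library.

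The partner proteins of the GATA and TAL complex were read next. A list score is the mean, over the list's genes that passed the filter, of the distance in log2 CPM from the gene's own median in the 12 libraries. It lay between -0.11 and 0.22 for 13 of the 14 partner genes and between -0.60 and 2.05 for the 9 members outside 411, with 3.16 for the members in 411. Ldb1, the adaptor that joins these complexes, stood at 104 CPM in 411 and at 108 to 170 in the others. Tcf4, an E-protein that pairs with TAL1, stood at 148 CPM in 411 and at 356 to 583 in the others. Ssbp3, which stabilises LDB1, stood at 111 CPM in 411 and at 119 to 180 elsewhere. Zfpm2, a cofactor of GATA factors, stood at 45.7 CPM in 411 and at 96.0 to 188 in the others. The score of the partners in 411 (-0.05) is a mean over genes that lay on both sides, with 4 of the 13 highest there (27.5% of all genes), 6 lowest (23.7%) and 2 at least 1 log2 unit above the other libraries' median (12.9%). Ldb2, the paralog of Ldb1, and Cbfa2t3, a corepressor, were picked once their values were known. They stood at 17.6 CPM in 411 against 0.714 to 6.66 and at 20.3 CPM against 69.9 to 153. The summed CPM of the 14 partners was 626 in 411 and 1085 to 1342 in the others.

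Engrailed partners and genes of the isthmus, the embryonic boundary of midbrain and hindbrain, were read next. Tle4, a groucho corepressor, stood at 52.3 CPM in 411 and at 39.0 to 48.0 in the others. A pair of paired box genes of the isthmus, chosen after their values were seen, went opposite ways. Pax5 stood at 19.6 CPM in 410, 17.4 in 411, 8.49 in 413 and 2.21 in 430, and at most at 0.330 in the other 8 libraries. Pax2, which cerebellar interneurons of the Golgi and molecular layer lineage express, stood at 0.454 CPM in 411 and at 8.86 to 16.0 in the others. The organiser signals Fgf8 and Wnt1, also chosen after their values were seen, were at or near 0 in all libraries, with at most 0.0505 and 0.0262 CPM.

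Genes of the transmitter systems that Lmx1b and Nr4a2 serve were read as well. Of the 8 dopaminergic genes that passed the filter, 7 lay at least 1 log2 unit above the other libraries' median in 411, with 12.9% of all genes doing so, and 4 of 8 did in 410 (7.18%), 3 of 8 in 430 (3.74%) and 425 (1.6%) and 2 of 8 in 413 (2.5%), with 1 of 8 in 426 (0.702%), 431 (0.991%), 420 (0.604%) and 429 (1.73%). Th, tyrosine hydroxylase, stood at 32.2 CPM in 411 and at 1.01 to 17.5 elsewhere, and Slc6a3, the dopamine transporter, at 36.2 CPM in 411, 1.10 in 410 and at most 0.281 in the other 10. Of the serotonergic genes, 4 of 4 lay above by that margin in 411, 3 of 4 in 410 and 413, 2 of 4 in 430, and 1 of 4 in each of 425, 426 and 420, beside the same shares of all genes. Tph2, the serotonin-making enzyme of neurons, was highest in 410, at 16.0 CPM, with 10.9 in 411 and at most 2.07 elsewhere. Slc6a4, the serotonin transporter, showed the same order with 14.9 CPM in 410 and 9.79 in 411. Libraries 410 and 411 were also the 2 with the most Lmx1b, while 430, with 1.41 CPM of Tph2, had little. In WT library 425, the third highest for Lmx1b, Tph2 stood at 0.777 CPM and Slc6a4 at 0.0707 CPM. Nr4a2, at 17.0 CPM in 410 and 18.1 in 411, was below its median of 22.6 CPM in both.

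Neighbouring brain regions were read by their own factors. All 4 of 4 diencephalon factors lay at least 1 log2 unit above in 411 (12.9% of all genes did so), 3 of 4 in 430 (3.74%), 2 of 4 in 410 (7.18%) and in WT library 413 (2.5%), and 1 of 4 in 425 (1.6%) and 429 (1.73%). Lhx9, a LIM homeobox factor of thalamus and tectum, stood at 22.6 CPM in 411, 12.4 in 430, 6.66 in 410 and 3.89 in 413, and at 0.131 to 1.11 in the others. Tcf7l2, a thalamic and habenular factor, stood at 76.2 CPM in 411, 43.9 in 430 and 23.1 in 410, and at 7.56 to 15.9 in the others. Of the forebrain factors 3 of 6 did so in each of 411, 410, 430 and 413, 2 of 6 in 429 and 1 of 6 in 425, beside the same shares of all genes. Bcl11b, a zinc finger factor of forebrain projection neurons that other neurons also express, stood at 26.7 CPM in 411, 7.41 in 430 and 7.24 in 410. Neurod6, a factor of cortical neurons, stood at 1.36 CPM in 411, within 1.18 to 3.80 in the others. Caudal to the cerebellum, Hox genes mark the hindbrain. None of 14 anterior Hox genes passed the filter, and their summed CPM was 21.9 in WT library 425 and at most 1.16 elsewhere, with 0.151 in 411. Hoxb5 alone gave 5.91 CPM in 425 and Hoxa5 gave 4.62.

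Lists of other cell types were read by library as well. Genes of the cerebellar nuclei, whose neurons lie inside the cerebellum, had list scores of 1.56 in 411, 1.58 in 410, 1.10 in 413 and 0.81 in 430, with 0.55 in 429, 0.29 in 425 and -1.52 to -0.13 in the other 6. Slc17a6, the vesicular glutamate transporter of these and of many midbrain and thalamic neurons, stood at 278 CPM in 411, 84.6 in 410, 48.5 in 430 and 37.5 in 413, and at 0.253 to 22.3 in the others. The nuclei list split in 411, with 4 of 6 genes at least 1 log2 unit above (12.9% of all genes) and 2 of 6 lowest of the 12 (23.7%). These 2, chosen after their values were seen, were Slc6a5 (12.6 CPM against 29.0 to 52.5) and Tbr1 (0.454 against 0.542 to 1.73). Transmitter genes had list scores of 2.16 in 410, 1.67 in 411, 1.50 in 413, 1.00 in 430 and 0.93 in 425, and -0.88 to -0.14 in the other 7. This list split in 411 too, with 7 of 12 genes at least 1 log2 unit above (12.9% of all genes) and 2 of 12 lowest (23.7%). These 2 were Slc6a5 and Slc17a7, the latter at 1.67 CPM in 411 against 226 to 751. The summed CPM of 10 oligodendrocyte genes was 6827 in 411, 5684 in 410 and 1331 to 3570 elsewhere, with 10 of 10 at least 1 log2 unit above in 411 (12.9% of all genes), 9 of 10 in 410 (7.18%) and 1 of 10 in 413 (2.5%). For 10 microglia genes it was 205 in 411, 149 in 410 and 74.9 to 107 elsewhere. For 12 granule cell genes it was 226 in 411, 4228 in 410, 4567 in 430 and 6023 to 9528 in the others, and for 10 Purkinje cell genes it was 771 in 411, 3568 in 410, 5654 in 430 and 5212 to 8352 in the others. No gene of these 4 lists had 0 reads in any library. Ranges by group were 6146 to 7097 in WT DMSO, 226 to 9528 in Het DMSO and 4228 to 7154 in Het Hit 2 for the granule cell list. The part of cell composition in the differences between groups was not tested. Choroid plexus genes were high in other libraries as well, with 1983 summed CPM in 429, 1135 in 425, 980 in 410 and 702 in 413, against 197 in 411 and 32.2 in 430.

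**Figure D3:**
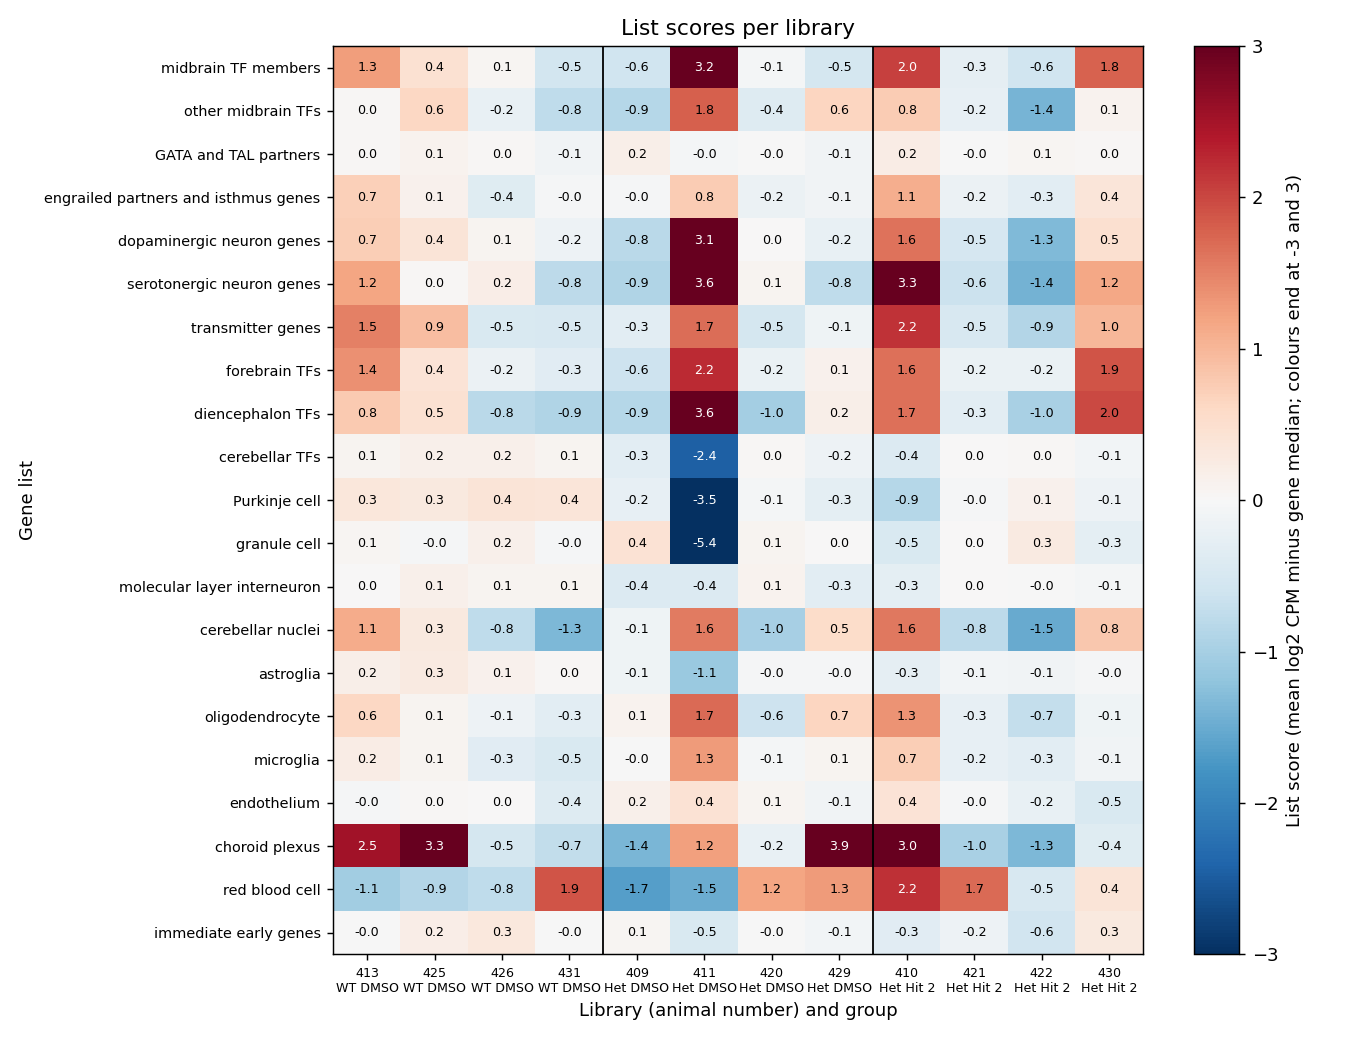
List scores (mean distance in log2 CPM from each gene's median in 12 libraries; colour and printed value) for the 10 factors' 9 filtered genes in the top line and for 20 other gene lists, by library and group. Libraries 411, 410, 430, 413 and 425 are positive for the midbrain, diencephalon, forebrain and serotonergic lists, and 411 alone is strongly negative, at -5.38, for granule cell genes.

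For each tested member, the 3 genes with the most similar profile over the 12 libraries were found among genes of mean at least 1 CPM. The distance is the root mean square difference of log2 CPM after each gene's median is subtracted, and it is set beside the distance of the member from a flat profile. Both Gata3 (distance 0.67, flat 3.28) and Pax7 (0.88, flat 3.35) were nearest to Six3, a homeobox factor of the forebrain and of some midbrain neurons. Tal1 was nearest to Ptpro (0.32, flat 1.50), a receptor phosphatase, Pou4f1 to Asic4 (0.56, flat 2.40), an ion channel subunit gene, and Gata2 to Cmip (0.087, flat 0.55). Lmx1b was nearest to C130021I20Rik (0.48, flat 2.10), followed by Slc5a7, the choline transporter of cholinergic neurons. En2 was nearest to Sel1l3 (0.084, flat 0.97), followed by Zbtb46 and Mpp3, all low in 411 and high in 409. Nr4a2 was nearest to Epha2 (0.24, flat 0.52), Cand2 and its paralog Nr4a1, which activity induces in neurons. En1 was nearest to Gm10800 (0.68, flat 1.56). Without 411 the nearest gene was the same for 8 of the 9 members, and Tal1 was nearest to Kcnmb2 (0.27, flat 0.92), a potassium channel subunit gene. Nr4a2 was then followed by Nr4a3, another paralog, and Dact1 in place of Cand2 and Nr4a1. En2 lay 0.34 from a flat profile without 411, and Iffo2 stood in place of Mpp3 among its nearest genes.

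In the comparison of Het DMSO with WT DMSO, which addresses the knock-in allele, edgeR's quasi-likelihood test called 0 of the 9 members at an adjusted p under 0.05, with 0.00516% of the 19378 genes called. At an unadjusted p under 0.05, which 7.11% of all genes reached, there was 1 member, Tal1, and without 411 there were 0 of the 8 that have a fold, with 7.33% of all genes. Its mean was 1.29 ± 0.511 CPM (SD, n = 4) in WT and 7.40 ± 12.1 CPM (SD, n = 4) in Het DMSO, and the difference was 2.51 on the log2 scale (SE 1.03, with p 0.616 after edgeR's adjustment and 0.400 by the exact two-sided permutation test). Without 411 its log2 difference was 0.07 (SE 0.59, p 0.963 after edgeR's adjustment), and the other 3 Het DMSO libraries stood at 1.35 ± 0.466 CPM (SD, n = 3). Gata3 stood at 0.374 ± 0.632 CPM (SD, n = 4) in WT and 7.85 ± 15.5 CPM (SD, n = 4) in Het DMSO, a log2 fold change of 4.40 that was -1.91 without 411. Pou4f1 stood at 0.383 ± 0.309 and 5.51 ± 10.8 CPM (SD, n = 4 each), a log2 fold change of 3.80 that was -1.70 without 411. Lmx1b stood at 1.41 ± 1.39 and 2.65 ± 4.70 CPM (SD, n = 4 each), with 0.89 and, without 411, -2.32. For Pax7, with 0.577 ± 1.14 and 4.88 ± 9.77 CPM (SD, n = 4 each), no fold could be given without 411, since the other 3 Het DMSO libraries had 0 reads. For Gata3, Pou4f1 and Lmx1b the direction was the opposite once that 1 library was left out.

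For Gata2, Nr4a2, En1 and En2 the libraries of both groups overlapped in the same comparison. Gata2 stood at 4.75 ± 0.510 and 7.67 ± 4.59 CPM in WT and Het DMSO (SD, n = 4 each; log2 fold change 0.69, and 0.21 without 411). En2 stood at 126 ± 15.5 and 111 ± 74.7 CPM (SD, n = 4 each; -0.18, and 0.21 without 411). En1 stood at 7.46 ± 1.20 and 4.90 ± 4.84 CPM (SD, n = 4 each; -0.62, and -1.21 without 411), and Nr4a2 at 30.6 ± 9.07 and 25.1 ± 4.90 CPM (SD, n = 4 each; -0.29, and -0.15 without 411). For Sox14 the exact two-sided permutation p on log2 CPM was 0.143 over 70 assignments, of which the smallest possible p is 0.0286. In the 12 alternatives that tested Sox14 (1 of them with no filter on low counts), edgeR's adjusted p was between 0.337 and 1.00 in this comparison. The unadjusted p was under 0.05 in 10 of the 12, all with 411 among the libraries, where its log2 fold change was 5.77 to 6.78. In the 1 alternative that tested it without 411, which also left out 409, the log2 fold change was 2.44 (edgeR's unadjusted p 0.308). Groups did not overlap in 0 of the 9 members tested, against 4.39% of genes.

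In the comparison of Het Hit 2 with Het DMSO, which addresses the compound, 0 of the 9 members were called by edgeR, with 0% of all genes called, and 0 of the 9 reached an unadjusted p under 0.05, with 1.55% of all genes. Without 411, 4 of the 8 members that have a fold (Gata3, Nr4a2, En2 and Pou4f1) reached an unadjusted p under 0.05, as did 5.96% of all genes, and none of the 8 passed after edgeR's adjustment. Among Het Hit 2 libraries Gata3 stood at 9.03 and 3.38 CPM in 410 and 430 and at 0 and 0.0230 in 421 and 422. Pou4f1 stood at 1.10 and 4.08 CPM in 410 and 430 and at 0.0494 and 0.0460 in 421 and 422. The folds of both genes without 411 therefore rest on 410 and 430. En2 was lowest of Het Hit 2 in 410 (69.3 CPM) and highest of Het DMSO in 409 (194 CPM). Nr4a2 stood at 16.7 ± 4.58 CPM (SD, n = 4) in Het Hit 2 and at 25.1 ± 4.90 CPM (SD, n = 4) in Het DMSO, and its log2 fold change was -0.58 (SE 0.27, with p 0.898 after edgeR's adjustment and 0.0857 by the exact two-sided permutation test). Without 411 it was -0.74 (SE 0.27, p 0.630 after edgeR's adjustment). Gata3, with a mean of 3.11 ± 4.26 CPM (SD, n = 4) under Hit 2, had -1.35 and, without 411, 4.94. The log2 fold change of Tal1 was -1.23 and, without 411, 1.19. For Pou4f1 it was -2.07 and 3.41, for Lmx1b -0.76 and 2.41, and for Gata2 -0.34 and 0.12. For En1 it was 0.95 and 1.53 and for En2 -0.10 and -0.51. So 5 of the 8 members that have both values had the opposite direction when 1 library was left out, and none of the 8 passed the threshold either way. Groups did not overlap in 0 of the 9 members, against 1.03% of genes.

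In the comparison of Het Hit 2 with WT DMSO, edgeR called 0 of the 9 members, with 0.00516% of all genes called, and 1 member, Nr4a2, reached an unadjusted p under 0.05, as 1.71% of all genes did. Without 411 there were 2, Nr4a2 and Tal1, with 3.81% of all genes. Nr4a2 stood at 16.7 ± 4.58 CPM (SD, n = 4) against 30.6 ± 9.07 CPM (SD, n = 4), and its log2 fold change was -0.87 (SE 0.27, with p 1.00 after edgeR's adjustment and 0.0857 by the exact two-sided permutation test). Over the alternatives its adjusted p was between 0.108, from limma with library quality weights, and 1.00, from edgeR, and its log2 fold change between -1.06 and -0.55. The value of -0.55 came from leaving out WT libraries 425 and 426, and edgeR's unadjusted p was then 0.117. These libraries had the highest Nr4a2 levels (38.3 and 34.9 CPM) and were the ones with abundant Xist reads. The part of that difference in the fold was not tested. Immediate early genes, the group to which Nr4a2 and Nr4a1 belong in stimulated neurons, had a median log2 fold change of -0.32 over the 11 tested, beside 0.02 over all genes, and 0 of the 11 were called. Gata3 had 3.05 (SE 2.19), Pax7 1.92 (SE 2.17), Pou4f1 1.73 (SE 1.75) and Tal1 1.29 (SE 1.00), with Het Hit 2 libraries 421 and 422 at or below 1.33 CPM for each of these 4 genes. For Sox14, edgeR's log2 fold change was 4.50 to 5.50 in the 12 alternatives that tested it. Its unadjusted p was under 0.05 in 7 of the 12, and its lowest adjusted p was 0.346. Libraries 421 and 422 had 0 reads of Sox14. Groups did not overlap in 0 of the 9 members, against 6.32% of genes. The 3 comparisons share their control libraries and are not independent of each other.

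**Figure D4:**
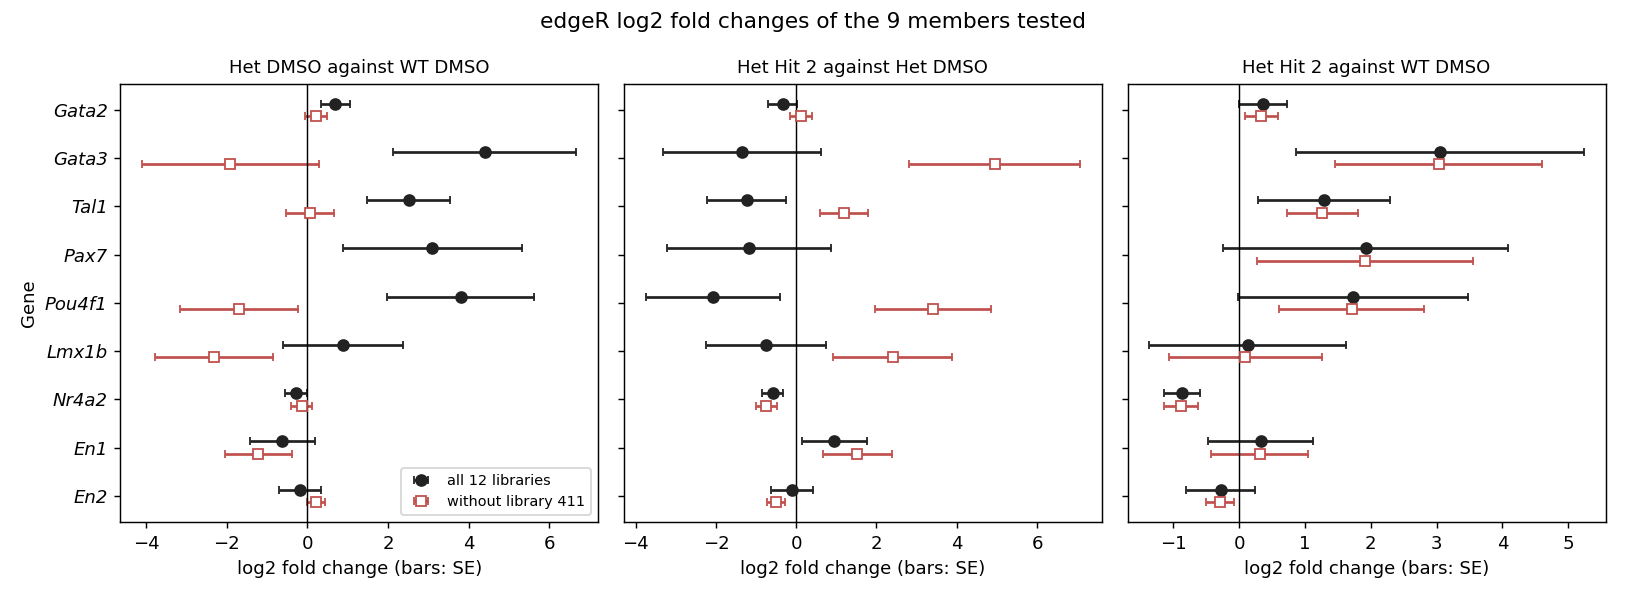
edgeR log2 fold changes (horizontal axis; bars are standard errors) of the 9 tested factors in the 3 comparisons, from all 12 libraries (filled circles) and without library 411 (open squares); Pax7 has no open square where the remaining Het DMSO libraries have 0 reads. In Het Hit 2 against Het DMSO, Gata3 lies at -1.35 with 411 and at 4.94 without it.

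None of the members' fellow lists gave a called gene in any of the 3 comparisons. For the 9 members the median log2 fold change was 0.89 for the knock-in allele (Het DMSO against WT), -0.76 for the compound and 0.35 for Het Hit 2 against WT, beside 0.05, -0.04 and 0.02 over all genes. Without 411 the same medians were -1.21, 1.53 and 0.34, with Pax7 at the bound that 3 reads over a group at 0 reads allow, so the first 2 had the opposite sign. The 4 tested midbrain factors of the further list had 0.34, -0.60 and -0.17 in the same order, the 4 diencephalon factors 1.53, -0.42 and 0.94, and the 13 GATA and TAL partners 0.12, -0.06 and -0.05. Without 411 the further midbrain factors had -0.02, -0.23 and -0.19, the diencephalon factors -0.49, 1.41 and 0.91, and the partners 0.12, -0.10 and -0.06.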

How the data were processed

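Total RNA of 12 mouse cerebella, depleted of ribosomal RNA, was read in pairs of 100 bases from strand-specific libraries, per the labels' protocols. The authors deposited raw read counts per gene and strand, in the layout of STAR, per the file headers. The submitters' processing notes name STAR 2.7.10a, FastQC 0.11.9 and build GRCm39. The 10 members, the gene lists, the tests and the alternatives were chosen with earlier results of these data known. The counts of the opposite strand were used as deposited, since 5.21% to 6.47% of gene reads lay on the other strand. Reads that STAR assigned to no gene (44.7% to 54.6% of reads), multimapping, unmapped and ambiguous reads stayed out. Symbols were matched for 55141 of 55401 identifiers, and exon lengths came from GENCODE M21 of GRCm38, another build than the authors'.

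edgeR 4.0.16 (R 4.3.3) fitted all 12 libraries in 1 quasi-likelihood model with filterByExpr, TMM scaling and no covariate. Tests were two-sided, with Benjamini-Hochberg adjustment over all 19378 genes and a threshold of 0.05. In counts simulated for Het DMSO against WT DMSO over these 19378 genes, the test found 21% of the genes with a 2-fold difference and 65% of those with a 4-fold one. Those genes were drawn at random, so the shares do not hold for the members, of which Gata3 had an SE of 2.27 in that comparison. Single genes were also compared by exact permutation over 70 assignments. Log2 CPM used a prior count of 2. Each library is 1 mouse, and animal numbers do not recur between groups. Named list genes are the up to 4 per list with the highest level per exon length and markers that share a cell type with a member, and others are said to be chosen after their values were seen. Alternatives were DESeq2 1.42.0, RLE factors, no filter, unstranded counts, robust fitting, limma 3.58.1 with library quality weights, 2 groups at a time, and libraries left out singly, as 409 with 411 or as 425 with 426. Leaving out 410, 411, 413 and 430 together was added after seeing the data. Some genes of the lists are not reported here.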

Additional observations from a re-analysis of the deposited data

Results flagged for a closer look

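A library was singled out where the gap to its nearest neighbour took a larger share of the range of its group of 4 than Dixon's critical value at 95% allows. Of 33 such checks on members and their score 5 passed, and chance alone passes about 1 in 20. The check of Pax7 in Het DMSO could not have failed, since the other 3 libraries had 0 reads and so share 1 value, and in WT DMSO the other 3 had at most 1 read of Pax7. In the WT DMSO group, library 413 had a log2 CPM of 1.24 for Pax7, with the next library at -3.35. In the Het DMSO group, library 411 had a log2 CPM of 4.29 for Pax7 (next library -3.80) and of 4.44 for Pou4f1 (next library -1.95). Its mean score over the 9 tested members was 3.16, with the next library at -0.07. In the Het Hit 2 group, library 410 had a log2 CPM of 2.54 for Lmx1b, with the next library at -1.50. Each of the 3 groups held at least 1 such library.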

How the results depend on the processing

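No member passed the threshold in the 21 alternatives in which members were tested (not when 410, 411, 413 and 430 were left out together), so 63 of 63 counts of members called were unchanged, as were all 72 counts of members high or low in a library and all 180 member scores within the spread between libraries. Gene counts moved more. Genes called for Het DMSO against WT DMSO (1) were 43 with DESeq2, 98 with quality weights, 0 with 2 groups only, 18 without 409 and 411, 3 without 410, 411, 413 and 430, 0 without 425 and 426, and 0 to 9 with single libraries left out. For Het Hit 2 against WT DMSO (1) they were 24 with DESeq2, 221 with quality weights, 4 with no filter, 2 with unstranded counts, 54 with 2 groups only, 90 without 409 and 411, 0 without 410, 411, 413 and 430, 0 without 425 and 426, and 0 to 14 with single libraries left out. For Het Hit 2 against Het DMSO the count was 0 throughout, with 301 genes at an unadjusted p under 0.05 in edgeR, 442 in DESeq2 and 87 (2 groups only) to 1201 (without 429) over the 22 alternatives, among them 1177 without 411 and 1151 without 420. The cause of these shifts was not tested. DESeq2 gave no adjusted p for Pou4f1. Sox14 was tested in 12 alternatives, 1 of them with no filter, with a lowest edgeR adjusted p of 0.337, 0.670 and 0.346 for the knock-in, the compound and both together.

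Directions of members reversed as follows, in log2 fold change, none of them past the threshold. With quality weights, Het DMSO against WT DMSO gave -0.15 for Gata3, -0.995 for Lmx1b, -0.87 for Pax7 and -0.999 for Pou4f1, Het Hit 2 against Het DMSO gave 0.0043 for En2, 0.0030 for Gata2, 2.87 for Pax7, 0.13 for Pou4f1 and 0.26 for Tal1, and Het Hit 2 against WT DMSO gave -0.23 for Gata3, -1.72 for Lmx1b and -0.87 for Pou4f1. Without 409 and 411, Het DMSO against WT DMSO gave -1.11 for Gata3, -1.83 for Lmx1b and -1.59 for Pou4f1, and Het Hit 2 against Het DMSO gave 0.32 for Gata2, 4.15 for Gata3, 1.90 for Lmx1b, 3.29 for Pou4f1 and 1.16 for Tal1. Without 425 and 426, Nr4a2 was 0.031 in Het DMSO against WT DMSO. The fitted folds of Pax7 in the 2 comparisons with Het DMSO without 411 are not given, since that group then had 0 reads and such a fold depends on the prior count.

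With single libraries left out, Het DMSO against WT DMSO ranged from -0.60 to 0.21 for En2, -1.91 to 6.80 for Gata3, -2.32 to 1.51 for Lmx1b and -1.70 to 4.22 for Pou4f1. Het Hit 2 against Het DMSO ranged from -0.51 to 0.31 for En2, -0.57 to 0.12 for Gata2, -2.81 to 4.94 for Gata3, -3.53 to 2.41 for Lmx1b, -3.90 to 3.41 for Pou4f1 and -1.84 to 1.19 for Tal1. Het Hit 2 against WT DMSO ranged from -0.0039 to 0.63 for En1, -2.66 to 0.76 for Lmx1b and -0.13 to 2.15 for Pou4f1. No paired analysis was possible because no replicate number is shared between groups. Depth limits Pax7, Sox14 and Gata3 most, where 0 reads in a library allow up to 0.187 CPM.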
